A study of Mus musculus with 8 samples.

Results

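Peaks of open chromatin were examined at 8 genes that mark subtypes of retinal ganglion cells (RGCs): Opn4, Eomes, Tbx20, Spp1, Kcng4, Foxp2, Tbr1 and Satb1. They are 8 of the 21887 protein-coding genes in the mouse annotation used here. The window of a gene was the gene itself and 20 kb on either side, in build GRCm38, and every peak that shared at least 1 bp with it was counted. Peaks of different lists that touched were joined into regions, and 65 of the 189914 regions of the series lay in these windows.

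The data are from ATAC-seq, in which a transposase cuts and tags DNA that is not packed away. All mice were adult C57BL/6J animals. Each eye received AAV2 with GFP (control), Ezh2 or Ezh2-Y726D in the vitreous. A crush of the optic nerve followed after 2 weeks, and RGCs were sorted another 3 days on, with 50000 cells used per library. All groups, the GFP control included, thus carried the virus and the crush, and no uninjured group is described here. Ezh2 is the subunit of the Polycomb complex that methylates lysine 27 of histone H3, and Ezh2-Y726D is a form of it without catalytic activity. There were 3 GFP, 3 Ezh2 and 2 Ezh2-Y726D libraries. The labels do not say whether libraries of a group came from separate mice, so p-values measure the spread between these libraries only. Cells were sorted as live and positive for CD90.2, a surface protein that RGCs share with mouse T cells, and the marker lists below show how far the lists held peaks of other cells.

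RGCs carry the output of the retina to the brain and fall into many subtypes, which differ in shape, in the visual feature they report and in how well they survive a crush of the optic nerve. Intrinsically photosensitive RGCs (ipRGCs) sense light themselves through the pigment melanopsin, whereas the large, fast-conducting αRGCs are known for their survival after injury. The subtypes are told apart by transcription factors and by a few surface, channel and secreted proteins. Regulatory DNA is more open in cells that use it, but open chromatin at a gene is not a measure of its RNA.

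The stretches of 250 bases that precede the start sites of Opn4, Eomes, Spp1 and Kcng4 are shown first because results at these start sites follow: a peak present in some libraries at Spp1 and Eomes, a peak of differing rank at Kcng4, and none over the start site at Opn4. They are the RefSeq sequences in build GRCm38.p6, written 5′ to 3′ on the strand of the gene, and 7 of the 8 genes had an entry (Foxp2 had none). Opn4 lies at chr14:34600143-34600392 (minus strand), Eomes at chr9:118477939-118478188 (plus), Spp1 at chr5:104434861-104435110 (plus) and Kcng4 at chr8:119635681-119635930 (minus). Capitals mark matches, on either strand, to the letters of 6 motifs: AP-1 (TGANTCA), Runx (ACCACA), Ets (AGGAAG), T-box (GGTGTGA), POU4 (ATTAAT) and E-box (CANNTG).
Opn4: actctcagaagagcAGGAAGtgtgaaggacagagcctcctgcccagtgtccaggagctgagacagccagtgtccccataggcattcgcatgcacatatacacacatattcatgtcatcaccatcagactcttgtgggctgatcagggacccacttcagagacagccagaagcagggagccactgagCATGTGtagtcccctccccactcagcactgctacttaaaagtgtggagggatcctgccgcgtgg
Eomes: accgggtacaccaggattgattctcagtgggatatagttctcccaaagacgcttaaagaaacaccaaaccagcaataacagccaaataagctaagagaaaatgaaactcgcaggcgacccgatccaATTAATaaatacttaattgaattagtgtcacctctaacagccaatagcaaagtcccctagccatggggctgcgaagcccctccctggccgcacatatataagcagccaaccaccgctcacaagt
Spp1: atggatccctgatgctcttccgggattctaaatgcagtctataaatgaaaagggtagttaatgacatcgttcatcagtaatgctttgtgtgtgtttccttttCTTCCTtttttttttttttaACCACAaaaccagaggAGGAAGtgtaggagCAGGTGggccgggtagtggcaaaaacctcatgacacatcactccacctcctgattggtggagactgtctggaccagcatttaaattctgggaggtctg
Kcng4: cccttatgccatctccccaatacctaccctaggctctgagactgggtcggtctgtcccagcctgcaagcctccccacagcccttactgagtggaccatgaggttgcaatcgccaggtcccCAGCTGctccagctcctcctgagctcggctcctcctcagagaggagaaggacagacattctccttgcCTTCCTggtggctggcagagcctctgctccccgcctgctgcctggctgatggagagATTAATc

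Of the 4 sequences, that of Spp1 held the only Runx match, 128 bases before the start, with Ets matches 148 and 112 bases before it and an E-box 98 bases before it. Opn4 held an Ets match 236 bases and an E-box 64 bases before the start. Eomes had a POU4 match 124 bases before its start, while Kcng4 had one 7 bases before it, beside an Ets match at 63 and an E-box at 130 bases. No matches overlapped in these stretches. Among the first start sites of the 7 genes, 4 held an Ets match, 4 an E-box, 3 a POU4, 1 a Runx and 0 an AP-1 or T-box match. Over 32851 mouse promoters of the same length, the shares were 29.5% for Ets, 66.2% for E-box, 4.39% for POU4, 14% for Runx, 6.75% for AP-1 and 3.33% for T-box. A match is only a description of letters. The GC content was 54.8% for Opn4, 46.4% for Eomes, 43.6% for Spp1 and 60.4% for Kcng4, against a median of 52.4% over all promoters.

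The lists held between 112939 and 135895 peaks and covered 64.7 to 82.1 Mb per library. They hold no read numbers, so depth is unknown and the absence of a peak means only that the caller's threshold was not passed. The gene of the injected construct, Ezh2, had 4, 5 and 6 peaks with GFP, 9, 10 and 9 with Ezh2, and 4 with Ezh2-Y726D in either library. Of 15 genes that most RGCs use, 14 had a peak within 1 kb of a start site in each GFP library and 14 to 15 in the others. Start-site peaks do not by themselves identify the sorted cells, since they were also present at 9 of 10 genes of Müller glia in every library, at 10 to 12 of 12 amacrine cell genes and at 6 to 9 of 10 rod genes. The length covered at the rod start sites was 5.94 to 6.57 kb with GFP, 3.30 to 4.44 kb with Ezh2 and 3.70 to 5.15 kb with Ezh2-Y726D, so that GFP was highest without overlap. The libraries differed also in peaks of blood-derived cells, which are given beside Spp1, Eomes and Satb1, the genes here that such cells are also known to use.

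**Figure D1:**
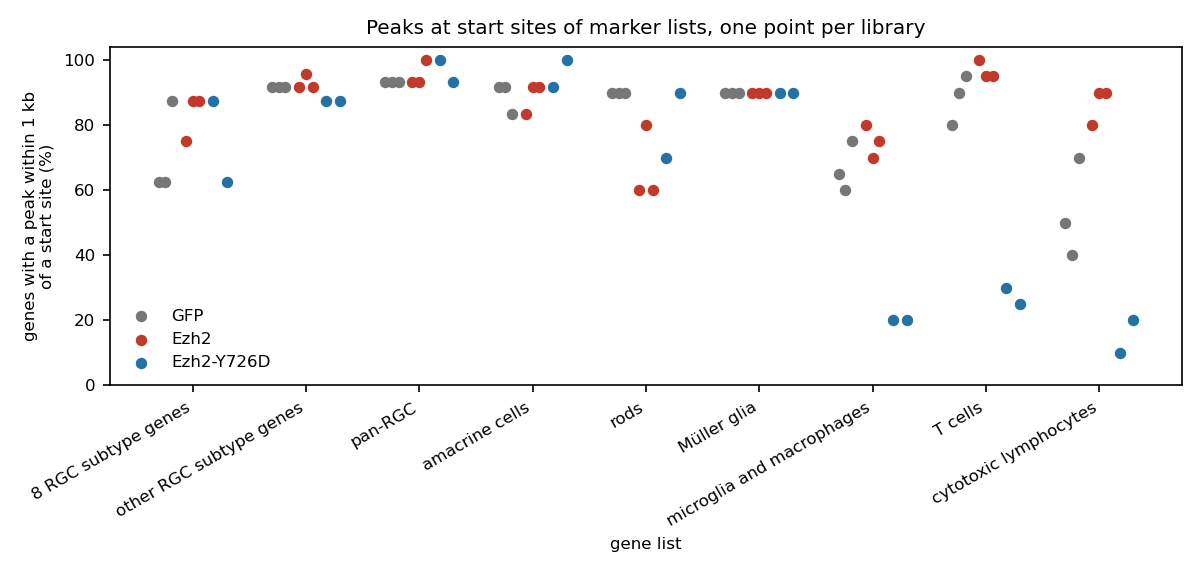
Share of the genes of each list with a peak within 1 kb of a start site (vertical axis, percent), with 1 point per library and the lists along the horizontal axis. The points of the pan-RGC list and of the other RGC subtype genes lie together and those of the 8 genes lie between 62.5% and 87.5%, whereas those of microglia and macrophages, T cells and cytotoxic lymphocytes are lower in both Ezh2-Y726D libraries than in any other.

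Kcng4 had the densest window, with 27.0 regions per 100 kb, followed by Opn4 with 16.2, Spp1 with 13.1, Eomes with 12.5, Satb1 with 7.29, Tbr1 with 5.85, Tbx20 with 4.28 and Foxp2 with 2.41. The strength of a peak is given as its within-list percentile, its rank by fold among the peaks of the same library on a scale where 100 is the strongest. Fold is the signal at the summit over the local background. The highest mean percentiles over the libraries belonged to a region near Spp1 (95.5) and a region at the edge of the Kcng4 window (95.5). The only gene whose covered length passed a test between groups was Foxp2, which was lowest with Ezh2 and highest with Ezh2-Y726D.

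**Figure D2:**
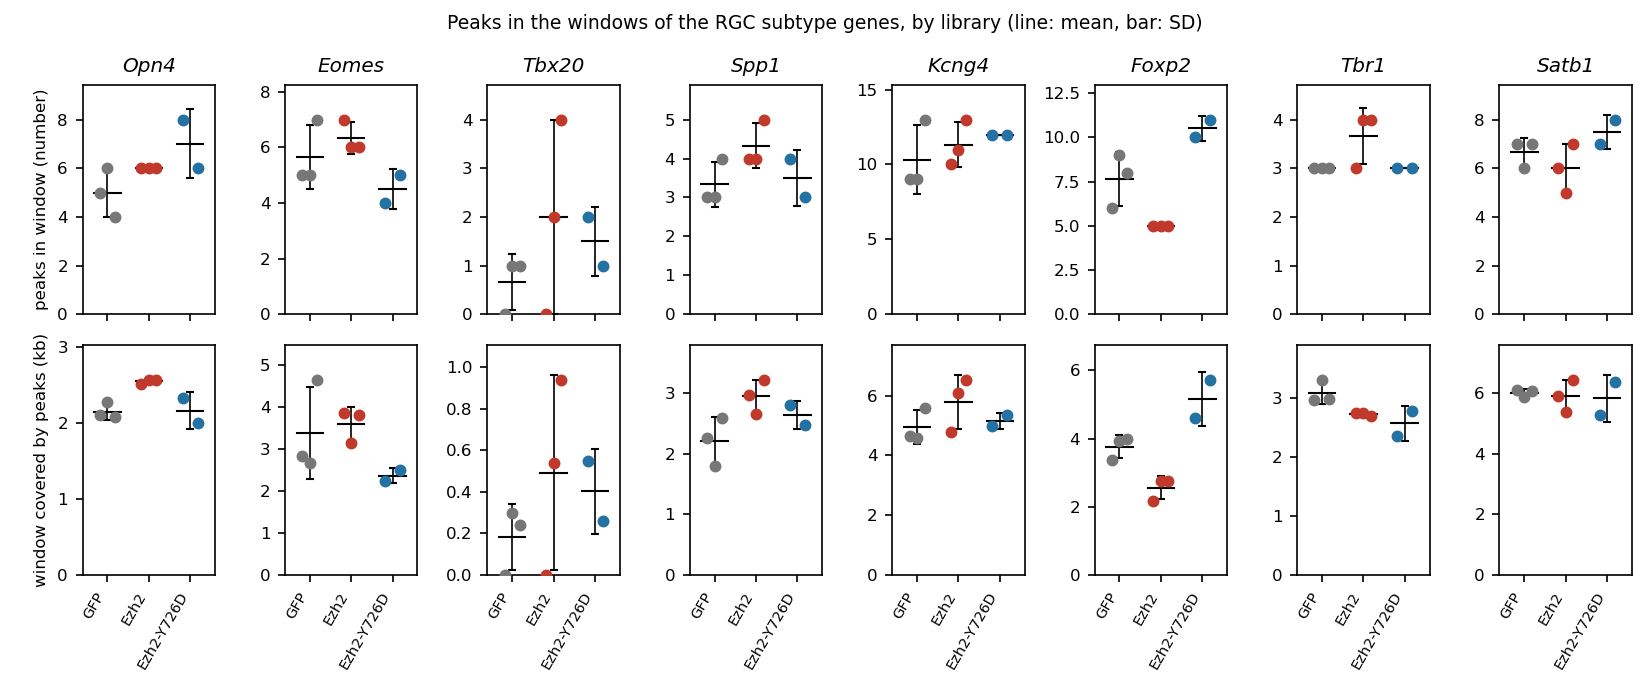
Number of peaks (upper row) and kilobases covered by peaks (lower row) in the window of each gene, with 1 point per library, a line for the group mean and a bar for the SD. In the Foxp2 panels each Ezh2 point lies under every GFP point, and each Ezh2-Y726D point over every GFP point.

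Opn4 encodes melanopsin, the light-sensing pigment of ipRGCs. It lies at chr14:34590618-34600142 on the minus strand, and its window also reaches Ldb3. Its window held 8 regions, of which 4 were present in all 8 lists. The number of peaks was 5, 6 and 4 with GFP, 6, 6 and 6 with Ezh2, and 8 and 6 with Ezh2-Y726D. Peaks covered 2.10, 2.27 and 2.08 kb with GFP, 2.52, 2.57 and 2.56 kb with Ezh2, and 2.34 and 2.00 kb with Ezh2-Y726D. The covered length was thus higher in each Ezh2 library than in any GFP or Ezh2-Y726D library. The log2 difference in covered length was 0.20 ± 0.08 (SE, n = 3 and 3) between Ezh2 and GFP, which did not pass limma's test (adjusted p = 0.222). It was 0.01 ± 0.10 between Ezh2-Y726D and GFP (adjusted p = 0.984, limma) and 0.20 ± 0.10 between Ezh2 and Ezh2-Y726D (adjusted p = 0.187, limma). The last of these was 0.49 among peaks with a −log10 q of at least 5 (adjusted p = 0.00799, limma) and 0.34 with lists cut to equal length (adjusted p = 0.0439, limma), while the difference between Ezh2-Y726D and GFP turned to -0.21 and -0.17 under the same settings.

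No peak covered the Opn4 start site in any library. The nearest region, chr14:34599805-34600119, lay inside the gene with its edge 23 bp from the start site, did not reach the sequence printed above, and had a peak in Ezh2-Y726D 1 only, at percentile 30.3. Inside the gene, 8599 bp from the start site, chr14:34590784-34591543 had no peak in the 3 GFP libraries and a peak in all others. Its percentiles were 47.1, 9.5 and 44.6 with Ezh2 and 13 and 15.1 with Ezh2-Y726D, so that the peaks were of low to middling strength. A second region inside the gene, chr14:34595572-34596320, was named after its values were seen. It stood at percentiles 13.8 and 9.25 in GFP 1 and 2, had no peak in GFP 3, and reached 57.4 to 66.3 in the 3 Ezh2 libraries and 64.1 and 37.8 with Ezh2-Y726D. The first of these was thus missing in every GFP library and the second weaker or missing there. When the flank was set to 5 kb, which leaves these 2 regions and the one next to the start site, the log2 difference in covered length was 1.12 between Ezh2 and GFP (adjusted p = 0.0284, limma) and 0.99 between Ezh2-Y726D and GFP (adjusted p = 0.0353, limma). Neither comparison passed under any other alternative, with adjusted p of at least 0.121 and 0.236.

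Upstream of Opn4, 18697 bp from the gene, chr14:34618840-34619357 had a peak in every library and fell in both overexpression groups. Its percentiles were 69.3, 48.6 and 56.4 with GFP, 25.6, 26.9 and 32.0 with Ezh2, and 18.6 and 34.5 with Ezh2-Y726D, with no overlap between GFP and either group. On ranks turned into normal scores, over regions present in all lists, the difference was -0.90 ± 0.20 for Ezh2 against GFP (adjusted p = 0.0367, limma) and -0.92 ± 0.23 for Ezh2-Y726D against GFP (adjusted p = 0.0350, limma). The Ezh2 call was lost when any library of Ezh2 or of GFP was left out, with adjusted p from 0.0638 to 0.0950. The Ezh2-Y726D call was lost without Ezh2-Y726D 1 (0.259), Ezh2-Y726D 2 (0.0850) or GFP 1 (0.0731). Closer to the gene, chr14:34616698-34617190, also named after its values were seen, had the groups in the other order, at 68.7, 80.3 and 82.8 with GFP, 89.3, 89.1 and 95.0 with Ezh2, and 93.4 and 90.9 with Ezh2-Y726D. Its differences, 0.70 ± 0.20 and 0.75 ± 0.22, did not pass the test (adjusted p = 0.0763 and 0.0664, limma). Closer still, 10843 bp from the gene, chr14:34610986-34611983 was lower in both overexpression groups and was likewise named after its values were seen. It stood at 84.49, 89.98 and 80.35 with GFP, 72.96, 63.69 and 74.91 with Ezh2, and 67.31 and 73.7 with Ezh2-Y726D. Its differences, -0.63 ± 0.20 and -0.66 ± 0.22, did not pass either (adjusted p = 0.108 and 0.102, limma). The strongest region of the window, chr14:34569470-34570858, is nearest to Ldb3, had a mean percentile of 87.7 and differed from GFP by 0.02 ± 0.18 in Ezh2. The rod start sites also set GFP apart from both other groups, and the part of rods in the Opn4 values was not tested.

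**Figure D3:**
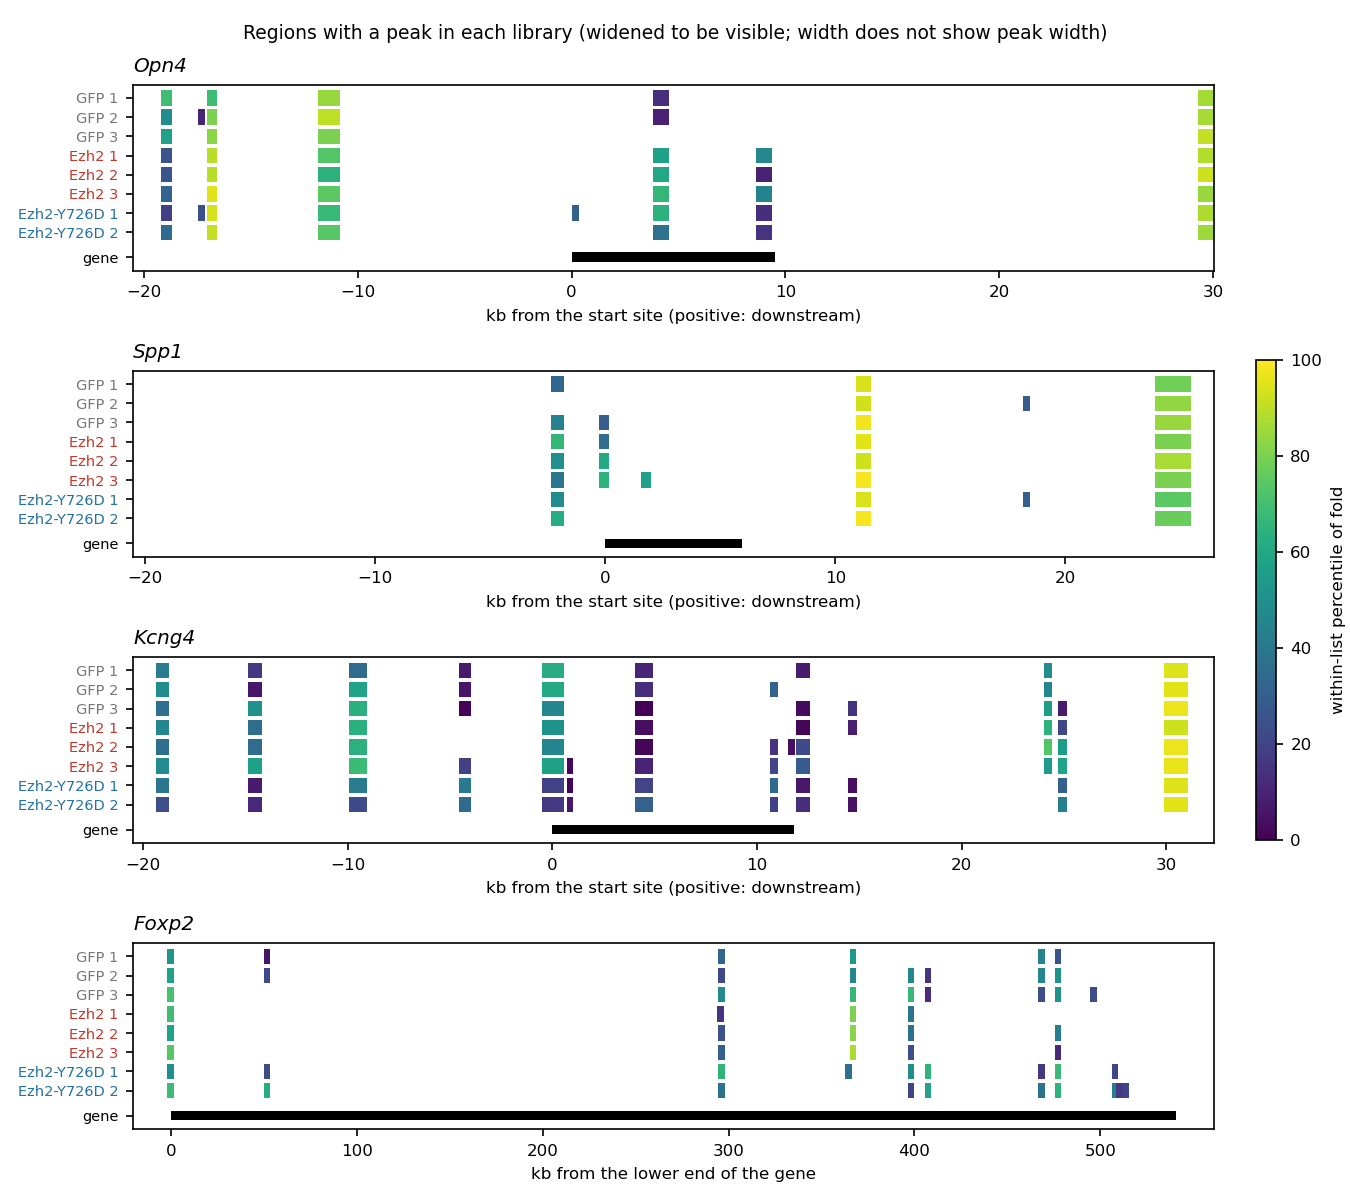
Regions with a peak in each library (rows) around Opn4, Spp1, Kcng4 and Foxp2, plotted by distance in kb from the start site or, for Foxp2, from the lower end of the gene, and coloured by within-list percentile; the black bar is the gene. Reading down the rows shows the Opn4 region near 9 kb that has no GFP peak, the Spp1 start-site peaks of GFP 3 and the 3 Ezh2 libraries, and the sparser Foxp2 rows of Ezh2.

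Eomes encodes a T-box transcription factor that ipRGCs need in order to form and to persist. It lies at chr9:118478186-118486132 on the plus strand, and its window held 6 regions, 4 of them in all lists. Peaks numbered 5, 5 and 7 with GFP, 7, 6 and 6 with Ezh2, and 4 and 5 with Ezh2-Y726D. Peaks covered 2.84, 2.67 and 4.64 kb with GFP, 3.85, 3.13 and 3.8 kb with Ezh2, and 2.23 and 2.49 kb with Ezh2-Y726D. Ezh2-Y726D was thus the lowest group, below every GFP and every Ezh2 library. Its log2 difference from GFP was -0.40 ± 0.19 (adjusted p = 0.239, limma), or -0.18 without GFP 3, and Ezh2 exceeded Ezh2-Y726D by 0.51 ± 0.19 (adjusted p = 0.0866, limma), so neither passed the test. Without GFP 3 the latter stayed at 0.51, with an adjusted p of 0.00639 (limma). GFP enters that comparison only through the shared spread and the adjustment. The difference did not pass without GFP 1, GFP 2 or any 1 Ezh2 library, with adjusted p of 0.0672 to 0.197 (limma). It was 0.45 without Ezh2-Y726D 1 and 0.58 without Ezh2-Y726D 2. Ezh2 differed from GFP by 0.11 ± 0.17 (adjusted p = 0.786, limma).

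The region that covers the Eomes start site and the printed sequence, chr9:118476977-118478387, had a peak in 5 lists: at percentile 13.7 in GFP 3, at 11.5, 21.2 and 5.06 in the Ezh2 libraries and at 24.2 in Ezh2-Y726D 2. These were weak peaks in each library. Just inside the gene, chr9:118478461-118479553 had a peak in every library, between 45.8 and 63.8, with no call in any comparison. Beyond the end of the gene, chr9:118486521-118487363 was present at percentiles of 4.23 to 24.9 in all GFP and Ezh2 libraries and absent in both Ezh2-Y726D libraries. The strongest region, chr9:118505696-118507393, is nearest to Golga4 and lay at 90.2, 91.6 and 89.9 with GFP, 88.2, 90.8 and 90.5 with Ezh2, and 81.6 and 73.0 with Ezh2-Y726D. Its difference between Ezh2-Y726D and GFP was -0.72 ± 0.19 normal score units (adjusted p = 0.0428, limma), and Ezh2 exceeded Ezh2-Y726D by 0.65 ± 0.19 (adjusted p = 0.0446, limma). Both calls were lost whichever library was left out, with adjusted p of 0.0583 to 0.257 for the first and 0.0523 to 0.280 for the second.

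Eomes is also used by cytotoxic lymphocytes. Of 10 genes of those cells, 4 to 7 had a start-site peak in the GFP libraries, 8 to 9 in Ezh2 and 1 to 2 in Ezh2-Y726D. The length covered at their start sites was 2.64 to 4.70 kb in GFP, 4.85 to 5.22 kb in Ezh2 and 0.535 to 1.17 kb in Ezh2-Y726D. The lymphocyte list was thus lowest in the same group as Eomes. In it 8 genes, Prf1, Gzma and Gzmb among them, had no start-site peak in either Ezh2-Y726D library. Genes without one in any GFP library numbered 3, and in any Ezh2 library 0. The part of such cells in the Eomes values was not tested.

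Tbx20, a further T-box factor, marks a subset of ipRGCs. It lies at chr9:24720812-24774303 on the minus strand, and its window held 4 regions, of which 0 were in all lists. The count of peaks was 0, 1 and 1 with GFP, 0, 2 and 4 with Ezh2, and 2 and 1 with Ezh2-Y726D. Peaks covered 0, 0.3 and 0.241 kb with GFP, 0, 0.537 and 0.937 kb with Ezh2, and 0.547 and 0.257 kb with Ezh2-Y726D. Groups overlapped, and the Ezh2 libraries ranged from no peak to the most peaks of any. The log2 differences were 0.44 ± 0.35 for Ezh2 against GFP (adjusted p = 0.532, limma; 0.11 without Ezh2 3 and 0.87 without Ezh2 1), 0.42 ± 0.39 for Ezh2-Y726D against GFP (adjusted p = 0.590, limma) and 0.03 ± 0.39 between Ezh2 and Ezh2-Y726D (adjusted p = 0.976, limma). Among peaks with a −log10 q of at least 5, Ezh2-Y726D differed from GFP by 0.64 (adjusted p = 0.0470, limma) and Ezh2 from Ezh2-Y726D by -0.64 (adjusted p = 0.0222, limma). Ezh2 and GFP differed there by only 3.6e-15. These calls thus rest on short Ezh2-Y726D peaks, of at most 0.547 kb per library, beside the 500 bp added before the log2. The start-site region, chr9:24774273-24774592, had a peak in GFP 3 (21.2), Ezh2 2 and 3 (25.2 and 30.2) and Ezh2-Y726D 1 (22.9). Within the gene, chr9:24739598-24739920 had the highest mean percentile of the window (43.3) and was present in both Ezh2-Y726D libraries, at 48.3 and 51.4, in Ezh2 3 at 30.2, and in none of the 3 GFP libraries. All peaks of this gene were of low or middling rank, and none was seen in GFP 1 or Ezh2 1.

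Spp1 encodes osteopontin, a secreted protein that marks αRGCs and supports the regrowth of their axons. It lies at chr5:104435111-104441053 on the plus strand, and its window also reaches Pkd2. The window held 6 regions, 2 of them in all lists. Peaks numbered 3, 3 and 4 with GFP, 4, 4 and 5 with Ezh2, and 4 and 3 with Ezh2-Y726D. Peaks covered 2.25, 1.80 and 2.58 kb with GFP, 2.96, 2.66 and 3.21 kb with Ezh2, and 2.80 and 2.47 kb with Ezh2-Y726D. Each Ezh2 library covered more than any GFP library, while Ezh2-Y726D overlapped both. The log2 difference between Ezh2 and GFP was 0.35 ± 0.12 (adjusted p = 0.139, limma), which did not pass the test. Without GFP 3 it was 0.45 (adjusted p = 0.0296, limma), while without GFP 1, GFP 2 or any 1 Ezh2 library the adjusted p was 0.173 to 0.379 (limma). Ezh2-Y726D differed from GFP by 0.22 ± 0.13 (adjusted p = 0.383, limma), or 0.10 without GFP 2, and Ezh2 from Ezh2-Y726D by 0.13 ± 0.13 (adjusted p = 0.544, limma).

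The Spp1 start site separated the groups by presence. The region chr5:104434844-104435283 covers the start site and the whole sequence printed above. It had no peak in GFP 1 or 2 or in either Ezh2-Y726D library, a peak at percentile 29.0 in GFP 3, and peaks at 35.9, 60.9 and 65.2 in the 3 Ezh2 libraries. It was thus present in every Ezh2 and no Ezh2-Y726D library, and GFP was divided. Farther downstream, chr5:104436664-104437103, near a second start site of the gene, had a peak in Ezh2 3 only (56.6). The region 1796 bp before the gene, chr5:104432747-104433314, was named after its values were seen and had a peak in 7 lists, at 33.0 and 43.9 in GFP 1 and 3, at 66.2, 49.5 and 39.4 in Ezh2 and at 48.3 and 61.9 in Ezh2-Y726D. The strongest region, chr5:104445998-104446684, lay 4944 bp beyond the end of the gene. Its percentiles were 93.8, 92.9 and 97.8 with GFP, 95.5, 92.2 and 98.8 with Ezh2, and 94.4 and 98.6 with Ezh2-Y726D, and it differed between Ezh2 and GFP by 0.09 ± 0.27 (adjusted p = 0.897, limma).

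Microglia and macrophages, the phagocytes of the injured retina, are also known to use Spp1. Of 20 of their genes, 12 to 15 had a start-site peak with GFP and 14 to 16 with Ezh2, whereas the Ezh2-Y726D libraries each had 4. The covered length at their start sites was 6.10 to 8.23 kb in GFP, 7.65 to 10.1 kb in Ezh2 and 1.58 to 2.20 kb in Ezh2-Y726D. In Ezh2-Y726D, 16 of the 20 had no start-site peak, among them Cx3cr1, C1qa, Csf1r and Tmem119. In GFP 4 had none in any library (Csf1r, Aif1, Fcrls and Gpr34). In Ezh2 4 also had none (P2ry12, Aif1, Fcrls and Gpr34). Aif1, Fcrls and Gpr34 thus had none in any group. The whole-window covered length of 17 of the 20 was higher in Ezh2 than in Ezh2-Y726D by limma, beside 15.9% of all genes. That of 4 was higher in Ezh2 than in GFP, beside 2.81% of all genes. The part of such cells in the peak at the Spp1 start site was not tested.

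Kcng4 encodes a subunit that modifies voltage-gated potassium channels and marks αRGCs. It lies at chr8:119623854-119635680 on the minus strand, and its window also reaches Taf1c and Adad2. The window held 14 regions, 6 of them in all lists. The number of peaks was 9, 9 and 13 with GFP, 10, 11 and 13 with Ezh2, and 12 and 12 with Ezh2-Y726D. Peaks covered 4.66, 4.57 and 5.59 kb with GFP, 4.79, 6.09 and 6.52 kb with Ezh2, and 4.97 and 5.35 kb with Ezh2-Y726D. The groups overlapped in both measures. The log2 differences were 0.21 ± 0.12 for Ezh2 against GFP (adjusted p = 0.361, limma), 0.06 ± 0.13 for Ezh2-Y726D against GFP (adjusted p = 0.847, limma) and 0.14 ± 0.13 for Ezh2 against Ezh2-Y726D (adjusted p = 0.495, limma).

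The Kcng4 start-site peak kept its place in every library but lost rank in Ezh2-Y726D. The region chr8:119635130-119636191, which spans the printed sequence, stood at percentiles 62.3, 60.8 and 46.1 with GFP, 50.9, 46.0 and 56.7 with Ezh2, and 19.1 and 16.7 with Ezh2-Y726D. Both Ezh2-Y726D values lay far below all others. The difference from GFP was -1.10 ± 0.23 normal score units (adjusted p = 0.0203, limma), and Ezh2 exceeded Ezh2-Y726D by 0.92 ± 0.23 (adjusted p = 0.0264, limma). The first call was lost without Ezh2-Y726D 1 (0.105), Ezh2-Y726D 2 (0.126), GFP 1 (0.0531) or GFP 2 (0.0512), and the second without Ezh2 1 (0.0563), Ezh2 3 (0.0616), Ezh2-Y726D 1 (0.117) or Ezh2-Y726D 2 (0.160). The direction was the same in all of these fits. In the same 2 libraries start-site peaks were also fewer at the genes of microglia and macrophages (4 of 20), T cells (5 to 6 of 20) and cytotoxic lymphocytes (1 to 2 of 10), and the part of such cells in the rank of the Kcng4 peak was not tested.

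Upstream of Kcng4, 9054 bp from the gene, chr8:119644735-119645643 stood at 34.9, 57.9 and 63.4 with GFP, 63.3, 63.9 and 68.0 with Ezh2, and 41.2 and 22.4 with Ezh2-Y726D. Ezh2 exceeded Ezh2-Y726D there by 0.97 ± 0.26 (adjusted p = 0.0342, limma), a call that was lost without any single Ezh2 or Ezh2-Y726D library, with adjusted p from 0.0599 to 0.260. Nearer the distal end of the window, chr8:119611286-119611649, whose nearest gene is Adad2, had a peak at 46.7 to 72.8 in all GFP and Ezh2 libraries and none in Ezh2-Y726D. A faint region inside the gene, 716 bp from the start site, chr8:119634662-119634964, was present in both Ezh2-Y726D libraries (1.42 and 5.92), in Ezh2 3 (2.33) and in none of the GFP libraries. The strongest region, chr8:119604624-119605770, is nearest to Taf1c and stood at percentiles of 92.3 to 97.4. At the other end, chr8:119654420-119655057 is nearest to Wfdc1 and lay between 23.5 and 48.8, with a difference of 0.02 ± 0.21 between Ezh2 and GFP (adjusted p = 0.981, limma). Rank calls in the Kcng4 window were thus made at single regions, and each was lost without some single library. The covered length and peak number of the window overlapped between groups.

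**Figure D4:**
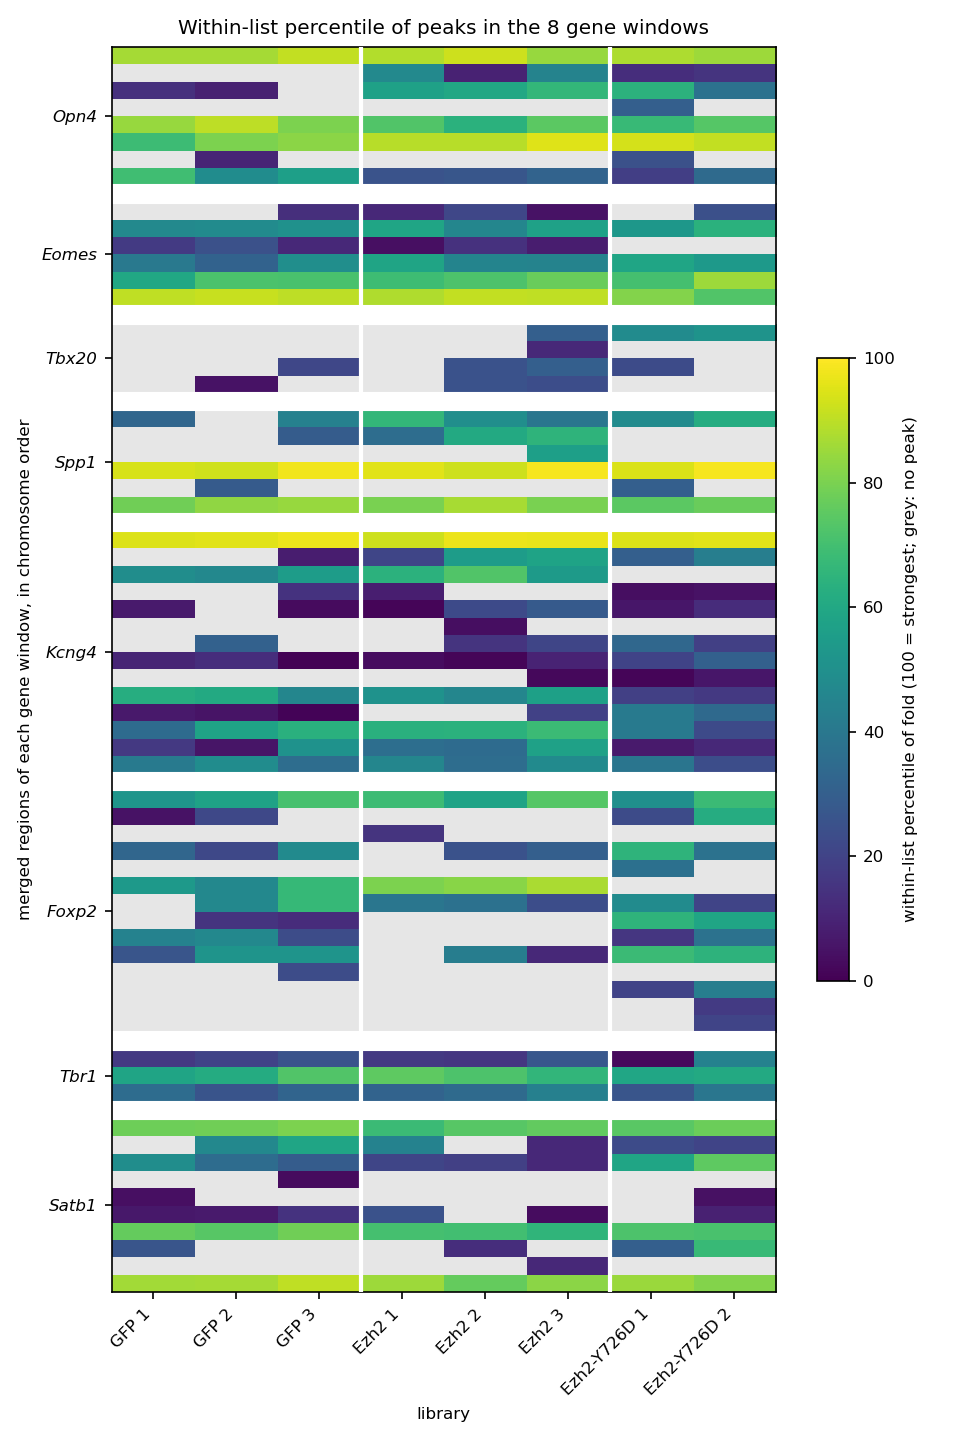
Within-list percentile of fold (colour, 100 is the strongest; grey, no peak) of the 65 regions (rows, grouped by gene and in chromosome order) in the 8 libraries (columns). The 3 rows of Tbr1 are coloured in every column, and the Foxp2 block has more grey cells under Ezh2 than under GFP or Ezh2-Y726D.

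Foxp2 encodes a forkhead transcription factor that marks a family of small RGCs named for it. It is the longest of the genes, at chr6:14901349-15441977, and the 14 regions of its window all lay inside the gene or overlapped its lower end. The window had 6, 9 and 8 peaks with GFP, 5, 5 and 5 with Ezh2, and 10 and 11 with Ezh2-Y726D. Peaks covered 3.37, 3.93 and 3.98 kb with GFP, 2.18, 2.75 and 2.76 kb with Ezh2, and 4.61 and 5.72 kb with Ezh2-Y726D. The 3 groups did not overlap in either measure, with Ezh2 lowest and Ezh2-Y726D highest. The log2 difference between Ezh2 and Ezh2-Y726D was -0.89 ± 0.13 (n = 3 and 2), which passed the test over 19306 genes (adjusted p = 0.00128, limma) and passed it under every alternative run, with adjusted p between 0.000227 and 0.0339. Ezh2 differed from GFP by -0.48 ± 0.11 (adjusted p = 0.0511, limma), just short of the threshold, and by -0.44 without GFP 3 (adjusted p = 0.0433, limma). Without GFP 1, GFP 2 or any 1 Ezh2 library the adjusted p was 0.0962 to 0.156 (limma). Ezh2-Y726D differed from GFP by 0.41 ± 0.13 (adjusted p = 0.0842, limma). Genes of microglia, macrophages and lymphocytes moved in the opposite direction between Ezh2 and Ezh2-Y726D. By limma, covered length was higher in Ezh2 at 17 of 20 genes of microglia and macrophages and 17 of 20 of T cells. It was also higher at 7 of 10 genes of cytotoxic lymphocytes, and lower at 0 in each list. Over all genes, 15.9% were higher and 3.93% lower. Among retinal lists, rods had 3 higher and 0 lower of 10, Müller glia 1 and 1 of 10, and amacrine cells 0 and 0 of 12. The part of any of these cells in the Foxp2 values was not tested.

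The Foxp2 difference was spread over several small regions within the gene. The region at its lower end, chr6:14900088-14902130, was the only one present in all 8 lists, at percentiles of 49.6 to 73.7, and differed by 0.18 ± 0.21 between Ezh2 and GFP (adjusted p = 0.705, limma). The highest mean percentile (69.6) belonged to chr6:15268037-15268537, which had Ezh2 highest. It stood at 53.6, 46.7 and 67.1 in GFP and at 80.4, 82.2 and 87.3 in Ezh2, and had no peak in either Ezh2-Y726D library. Of the regions absent in Ezh2 and present in Ezh2-Y726D, chr6:15308195-15308880 was at 65.0 and 58.7 in Ezh2-Y726D and at 15.0 and 12.6 in GFP 2 and 3. A further one, chr6:15369403-15369865, was at 44.3, 46.7 and 23.4 in GFP and at 15.7 and 37.8 in Ezh2-Y726D, and was the only region of the 65 present in every GFP library and absent in every Ezh2 library. The remaining pair were chr6:14952729-14953214, at 22.9 and 61.9 in Ezh2-Y726D and 4.69 and 21.7 in GFP 1 and 2, and chr6:15409139-15409427, at 20.2 and 42.8 in Ezh2-Y726D and absent elsewhere. Of the 14 regions, 8 had no peak in any Ezh2 library, 3 none in either Ezh2-Y726D library and 5 none in any GFP library. Regions present in every library of one group and absent from the other numbered 4 for Ezh2-Y726D over Ezh2 and 1 for Ezh2 over Ezh2-Y726D.

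Tbr1 encodes a T-box factor used by a small set of RGC types whose dendrites lie in the OFF layers. It lies at chr2:61802863-61814114 on the plus strand, with Psmd14 in reach of its window, and its 3 regions were present in all 8 lists. The count of peaks was 3 in every GFP and Ezh2-Y726D library and 3, 4 and 4 in Ezh2. Peaks covered 2.96, 3.29 and 2.98 kb with GFP, 2.73, 2.74 and 2.69 kb with Ezh2, and 2.35 and 2.78 kb with Ezh2-Y726D. Each overexpression library was below every GFP library, by small amounts. The log2 differences were -0.15 ± 0.09 for Ezh2 against GFP (adjusted p = 0.362, limma), -0.23 ± 0.10 for Ezh2-Y726D against GFP (adjusted p = 0.195, limma) and 0.08 ± 0.10 between Ezh2 and Ezh2-Y726D (adjusted p = 0.641, limma). The region nearest the start site, chr2:61804678-61805857, stood between 2.43 and 44.4, with these extremes in the 2 Ezh2-Y726D libraries. The strongest, chr2:61811502-61812611, lay inside the gene and stood at 58.5, 61.4 and 72.7 with GFP, 75.2, 72.2 and 65.8 with Ezh2, and 59.1 and 60.8 with Ezh2-Y726D, without a call in any comparison. Tbr1 was the only gene of the 8 with every region present in every library. Covered length at the rod start sites was likewise highest with GFP, and its part in the Tbr1 values was not tested.

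Satb1 encodes a chromatin organiser that direction-selective RGCs use and that T cells use as well. It lies at chr17:51736187-51833290 on the minus strand, and its window held 10 regions, 4 of them in all lists. Peaks numbered 7, 6 and 7 with GFP, 6, 5 and 7 with Ezh2, and 7 and 8 with Ezh2-Y726D. Peaks covered 6.11, 5.88 and 6.07 kb with GFP, 5.91, 5.39 and 6.43 kb with Ezh2, and 5.29 and 6.37 kb with Ezh2-Y726D. The groups overlapped throughout. The log2 difference from GFP was -0.03 ± 0.09 with Ezh2 (adjusted p = 0.918, limma) and -0.05 ± 0.10 with Ezh2-Y726D (adjusted p = 0.846, limma), and the 2 forms differed by 0.02 ± 0.10 (adjusted p = 0.916, limma).

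The region that covers the first start site of Satb1, chr17:51831543-51833502, was also its strongest, at 86.2, 86.6 and 90.6 with GFP, 85.5, 76.2 and 82.6 with Ezh2, and 85.1 and 81.4 with Ezh2-Y726D. Inside the gene, chr17:51790630-51791313 stood at 49.2, 35.4 and 29.0 with GFP, 21.0, 18.8 and 11.6 with Ezh2, and 58.9 and 75.3 with Ezh2-Y726D. This region ordered the 3 groups without overlap, and the difference between Ezh2 and Ezh2-Y726D was -1.48 ± 0.26 normal score units (adjusted p = 0.006, limma). The adjusted p was 0.0550 without Ezh2-Y726D 2, and the call held without any other single library. Against GFP, Ezh2 differed by -0.63 ± 0.23 (adjusted p = 0.161, limma) and Ezh2-Y726D by 0.85 ± 0.26 (adjusted p = 0.0754, limma). Of 20 T cell genes, 16 to 19 had a start-site peak in GFP, 19 to 20 in Ezh2 and 5 to 6 in Ezh2-Y726D, with 8.99 to 12.2, 13.2 to 14.6 and 2.74 to 3.02 kb covered. Cd3e, Cd3g, Cd8a and Lck were among the 14 without one in Ezh2-Y726D, beside 1 in GFP (Cd3d) and 0 in Ezh2. The T cell list was thus lowest in the group in which this Satb1 region ranked highest, and its part in the Satb1 values was not tested.

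Counted over the 8 genes, covered length passed limma's test at 0 genes between Ezh2 and GFP, 0 between Ezh2-Y726D and GFP and 1, Foxp2, between Ezh2 and Ezh2-Y726D. Over all 19306 genes tested, 3.37%, 7.75% and 19.8% passed in the same comparisons. By direction, the shares for Ezh2 against GFP were 2.81% up and 0.559% down. Those for Ezh2-Y726D against GFP were 2.38% up and 5.38% down, and 15.9% and 3.93% of genes were up and down for Ezh2 against Ezh2-Y726D. At an unadjusted p under 0.05 the counts were 3, 2 and 2 of the 8, beside 19.9%, 22.3% and 32.2% of all genes. The median log2 difference of the 8 was 0.16, 0.03 and 0.10, beside 0.07, -0.01 and 0.07 over all genes. Covered length did not overlap between Ezh2 and GFP at 2 genes that were higher in Ezh2, Opn4 and Spp1, and 2 that were lower, Foxp2 and Tbr1, beside 17.3% and 4.02% of all genes. Between Ezh2-Y726D and GFP it did not overlap at 1 higher gene, Foxp2, and 2 lower ones, Eomes and Tbr1, beside 14.6% and 20.2%. Between Ezh2 and Ezh2-Y726D there were 2 higher genes, Opn4 and Eomes, and 1 lower, Foxp2, beside 36.8% and 14.5%. The number of peaks in the window did not overlap at Foxp2 in all 3 comparisons and at Eomes between Ezh2 and Ezh2-Y726D. Over all genes it was without overlap and higher at 9.54% and lower at 2.6% for Ezh2 and GFP, at 9.16% and 14.3% for Ezh2-Y726D and GFP, and at 24.7% and 8.59% for Ezh2 and Ezh2-Y726D.

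**Figure D5:**
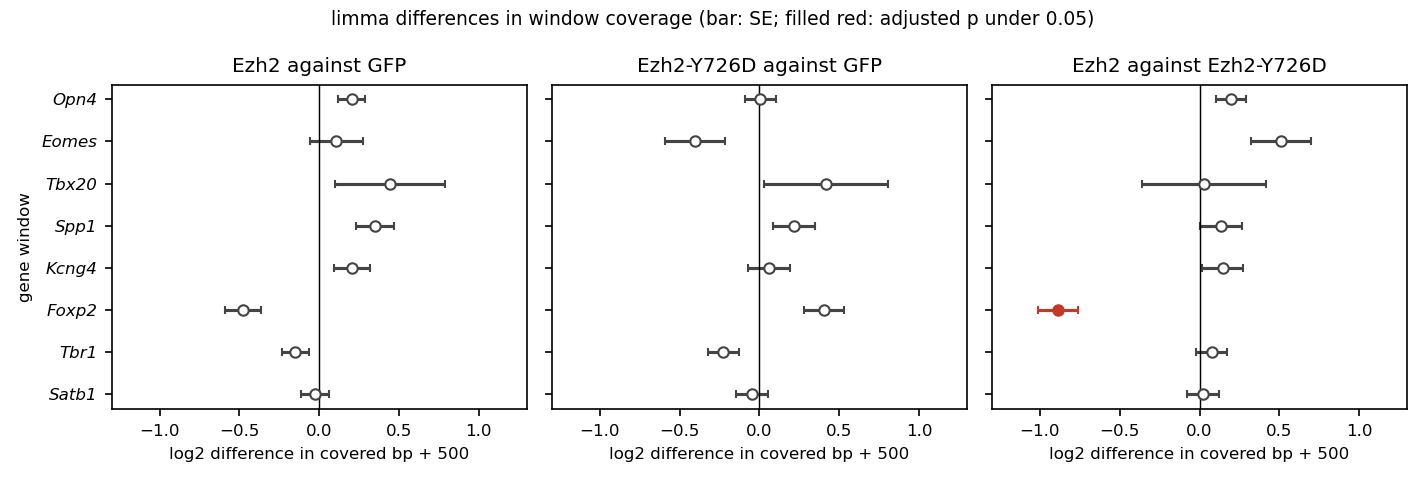
Log2 difference in covered length (horizontal axis, on the log2 scale of bp covered + 500) for each gene in the 3 comparisons, with bars of 1 SE from limma. Only the Foxp2 point of Ezh2 against Ezh2-Y726D, at -0.89, is filled as past the threshold.

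Presence changed at few regions. Between Ezh2 and GFP, 1 of the 65 regions was present in every Ezh2 and no GFP library (Opn4) and 1 the reverse (Foxp2), beside 2.72% and 1.68% of all regions. Between Ezh2-Y726D and GFP, 4 were gained (at Opn4, Foxp2, Kcng4 and Tbx20) and 3 lost (at Foxp2, Kcng4 and Eomes), or 6.15% and 4.62%, beside 4.77% and 4.72%. Ezh2 had 4 regions that both Ezh2-Y726D libraries lacked (at Spp1, Foxp2, Kcng4 and Eomes) and lacked 4 that both had, all at Foxp2, or 6.15% each way, beside 8.96% and 6.14%. The shares over the 8 genes were close to those of all regions, except that those absent in Ezh2 all lay in 1 gene. Of the 65 regions, 24 (36.9%) were present in all lists and 11 (16.9%) in only 1, beside 36.6% and 17.2% of all regions.

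Ranks were compared at the 24 regions that were present in all lists. Between Ezh2 and GFP, 0 rose and 1 fell, beside 1.59% and 2.84% of 69493 regions. Between Ezh2-Y726D and GFP, 0 rose and 3 fell, beside 3.55% and 4.65%. Ezh2 was higher than Ezh2-Y726D at 3 and lower at 1, beside 7% and 6.96%. Unadjusted p was under 0.05 at 4, 8 and 6 of the 24 in the same comparisons, beside 20%, 24.4% and 29.4% of all regions tested. Normal scores did not overlap at 2 regions that were higher in Ezh2 than in GFP and 6 that were lower, beside 11.9% and 12.1% of all regions. On the same scores, Ezh2-Y726D was above GFP without overlap at 5 and below it at 9, beside 19.6% and 21.8%. Ezh2 was above Ezh2-Y726D without overlap at 6 and below it at 2, beside 25.3% and 22.2%. At the 3 regions that fell in Ezh2-Y726D, one each at Opn4, Kcng4 and Eomes, the GFP percentiles ranged from 46.1 to 91.6.

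The total number of peaks in the 8 windows was 38, 42 and 47 with GFP, 41, 43 and 50 with Ezh2, and 50 and 49 with Ezh2-Y726D. The means were 42.3 ± 4.51 (SD, n = 3), 44.7 ± 4.73 (n = 3) and 49.5 ± 0.71 (n = 2). Ezh2-Y726D exceeded GFP by 7.17 peaks (two-sided exact permutation p = 0.2), Ezh2 exceeded GFP by 2.33 (exact p = 0.6) and Ezh2 differed from Ezh2-Y726D by -4.83 (exact p = 0.4). The smallest p this test can give here is 0.1. Per 100000 peaks of the list the differences were 4.02 (exact p = 0.2), -0.74 (exact p = 0.7) and -4.76 (exact p = 0.2), so the difference between Ezh2 and GFP turned its sign once the length of the list was taken into account.

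A list of 24 other genes that mark RGC subtypes was read in the same fit. Their covered length was higher at 1 and lower at 1 between Ezh2 and GFP, beside 2.81% and 0.559% of all genes. The numbers were the same between Ezh2-Y726D and GFP, beside 2.38% and 5.38%. Between Ezh2 and Ezh2-Y726D it was higher at 5 and lower at 1 of the 24, beside 15.9% and 3.93% of all genes. Nmb, which encodes the peptide neuromedin B, was higher in Ezh2 than in GFP by 0.50 ± 0.11 (adjusted p = 0.0422, limma), with 4.92 to 4.94 kb covered in Ezh2 and 2.72 to 3.99 kb in GFP. Zic1, a zinc finger transcription factor, was lower, with a difference of -0.40 ± 0.09 (adjusted p = 0.0476, limma). Isl2, a LIM homeodomain factor of RGCs that project to the opposite side of the brain, was lower in Ezh2-Y726D than in GFP, with a difference of -1.15 ± 0.22 (adjusted p = 0.0134, limma) and had 0.791 and 0.24 kb covered there against at least 1.36 kb in any other library. Col25a1, a membrane collagen, was higher in Ezh2-Y726D by 0.62 ± 0.15 (adjusted p = 0.0397, limma). Between Ezh2 and Ezh2-Y726D the largest differences were at Isl2 (1.23), Foxp1 (0.91), Nmb (0.67) and Rasgrp1 (0.59), all higher in Ezh2. Foxp1, a relative of Foxp2, covered 28.3 to 34.1 kb in Ezh2 and 14.9 to 17.5 kb in Ezh2-Y726D, the reverse of the order at Foxp2. In that comparison covered length was also higher in Ezh2 at 17 of 20 genes of microglia and macrophages. The same held for 17 of 20 genes of T cells and 7 of 10 of cytotoxic lymphocytes. The part of such cells in the differences named here was not tested. The medians of the list, 0.07, 0.05 and -0.02, were near those of all genes.

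Genes whose covered length was most like that of Opn4 and Spp1 over the 8 libraries were named as a description. For Opn4 these were Ankrd49 (Pearson's r = 0.953), G6pc (0.939) and Vmn1r188 (0.937), and 16 of 19304 genes had an r over 0.9. For Spp1 they were Ear10 (0.983), Taf3 (0.983) and Sumf1 (0.974), and 156 genes had an r over 0.9. The 8 points share their libraries and their list lengths, and fall into 3 groups.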

How the data were processed

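ATAC-seq was performed by the authors on sorted RGCs from mice given GFP, Ezh2 or Ezh2-Y726D. The submitters' processing notes name cutadapt, Bowtie2, SAMtools, Picard, MACS2 and deepTools, without versions or settings, and build GRCm38. Tags in the peak names mark a mapping quality filter and removal of duplicates. The deposited files are 1 narrowPeak list per library, called per sample and not on pooled samples. The deposited fold of each peak is the ratio of its summit signal to the local background. The authors' caller also gave a −log10 p-value, and a −log10 q-value was deposited with each peak, down to 1.31 to 1.38 by list. A deposited score, which rescales the q-value, entered no result. Depth is not given, so no counting error could be set, and lists of unequal length can differ in weak peaks.

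Groups were taken from the titles. Gene positions and start sites came from RefSeq tables of GRCm38.p6, which do not give exons, so places are given only as inside or outside a gene. The 8 genes, the motifs and the gene lists were chosen with earlier results of these data known. All 8 genes were named, with the region at the start site, the strongest region and the regions gained, lost or called, at most 3 per gene and comparison. Of the other subtype genes, at most the 4 largest calls per comparison were named.

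For each gene window (20 kb flanks), peaks were counted and covered bp taken as log2(bp + 500), for 19306 protein-coding genes with a peak in at least 1 list. Peaks sharing at least 1 bp were merged. A region was gained or lost when every list of one group and no list of the other had a peak. For 69493 regions in all 8 lists, within-list ranks of fold were turned into normal scores. Both measures were fitted in limma 3.58.1 (R 4.3.3, 3 groups in 1 fit, with a trend for covered length), with Benjamini-Hochberg adjustment over all features at 0.05. Total peaks were compared with two-sided exact permutation tests (scipy 1.17.1). The code was tested on simulated data. Alternatives were a 5 kb flank, a −log10 q of at least 5, lists of equal length, a pseudocount of 100, no gene filter, nearest gene only, regions at least 0.5 covered by a peak, ranks by −log10 p, regions in at least 5 lists, each library left out, and a replicate block. Peak sequences were not analysed here.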

Additional observations from a re-analysis of the deposited data

How the results depend on the processing

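The Foxp2 difference in covered length between Ezh2 and Ezh2-Y726D kept its direction and its call under every alternative run. The rank calls were less stable, as given beside each, and the cause was not tested.

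Genes called by covered length between Ezh2 and Ezh2-Y726D numbered 1, and 3 at a −log10 q of at least 5, 2 with lists of equal length and 2 with a replicate block by the numbers in the peak names. Between Ezh2 and GFP they numbered 0, and 1 with a 5 kb flank, 1 with lists of equal length, 2 with the replicate block and 1 with the block by peak names. Between Ezh2-Y726D and GFP they numbered 0, and 1 at a −log10 q of at least 5, 1 with a 5 kb flank and 1 with the replicate block. Regions gained and lost between Ezh2 and GFP numbered 1 and 1, 2 and 3 when presence needed 0.5 of the region covered, and 0 and 0 with lists of equal length.

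Regions of higher rank in Ezh2 than in Ezh2-Y726D numbered 3, and 1 with a 5 kb flank, 5 by −log10 p, 1 with the replicate block and 1 with the block by peak names, while those of lower rank numbered 1, and 0 with lists of equal length and 4 among regions in at least 5 lists. Between Ezh2 and GFP, higher ranks numbered 0, and 4 in at least 5 lists, and lower ranks 1, and 0 with a 5 kb flank, 2 by −log10 p, 2 in at least 5 lists and 0 with either block. Between Ezh2-Y726D and GFP, higher ranks numbered 0, and 1 in at least 5 lists, and lower ranks 3, and 1 with a 5 kb flank, 1 with the replicate block and 0 with the block by peak names.

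Differences near 0 turned their sign. The total of peaks between Ezh2 and GFP was -0.33 with lists of equal length. Covered length turned at Eomes between Ezh2 and GFP (-0.033 at a −log10 q of at least 5), at Kcng4 between Ezh2 and Ezh2-Y726D (-0.22 with a 5 kb flank) and between Ezh2-Y726D and GFP (-0.017 with the block by peak names), and at Satb1 between Ezh2 and Ezh2-Y726D (-0.027 with lists of equal length, -0.011 with the replicate block). At Opn4 between Ezh2-Y726D and GFP it was -0.21 at a −log10 q of at least 5, -0.17 with lists of equal length, -0.0015 with the replicate block and -0.0043 with the block by peak names. At Tbx20 between Ezh2 and Ezh2-Y726D it was -0.64 at a −log10 q of at least 5 (adjusted p = 0.0222, limma), -0.20 with a 5 kb flank, -0.13 with lists of equal length, -0.25 with a pseudocount of 100 and -0.18 with the replicate block.

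With each library left out in turn, genes called by covered length ranged from 1 to 2 between Ezh2 and Ezh2-Y726D, from 0 to 2 between Ezh2 and GFP and stayed at 0 between Ezh2-Y726D and GFP; the rises came without GFP 3. Regions gained between Ezh2 and GFP ranged from 1 to 4 (4 without GFP 3) and lost from 1 to 2. Those lost between Ezh2 and Ezh2-Y726D ranged from 4 to 8 (7 without Ezh2 3 or Ezh2-Y726D 1, 8 without Ezh2-Y726D 2). Regions of higher rank ranged from 0 to 3 between Ezh2 and Ezh2-Y726D, 0 to 1 between Ezh2 and GFP and 0 to 1 between Ezh2-Y726D and GFP, and of lower rank from 0 to 2, 0 to 1 and 0 to 2. The total of peaks between Ezh2 and GFP ranged from -0.33 (without Ezh2 3) to 4.67. Covered length changed sign at Eomes (-0.022 to 0.33) and Satb1 (-0.084 to 0.033) between Ezh2 and GFP, at Opn4 (-0.086 to 0.098) and Satb1 (-0.17 to 0.076) between Ezh2-Y726D and GFP, and at Satb1 (-0.10 to 0.14), Tbr1 (-0.026 to 0.18) and Tbx20 (-0.31 to 0.46) between Ezh2 and Ezh2-Y726D.

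Whether libraries with the same replicate number are pairs was not settled. The correlation of their deviations from the group means lay between -0.015 and 0.048 on ranks and between -0.038 and 0.14 on covered length over 7 pairs. On ranks 6 of 8 libraries correlated best with one of their own number, and on covered length 2 of 8. Groups of 2 or 3 libraries leave few deviations to compare. A call that the block removes is therefore to be read with caution. Ranks at a −log10 q of at least 5 were not run.

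Depth is unknown, and having 2 Ezh2-Y726D libraries limits what can be called. Of the 23 differences in covered length that passed no test, 18 moved by over 1.5 times when 1 library was left out. Peaks at genes of microglia, T cells and cytotoxic lymphocytes were fewer in both Ezh2-Y726D libraries, so that sorting and the construct cannot be told apart in any comparison with them, the Foxp2 call included. Most peaks at Tbx20 and all in the region over the start site of Eomes ranked low in their lists, and the part of depth in their presence was not tested. Neighbouring genes share parts of the Opn4, Spp1, Tbr1 and Kcng4 windows.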
